A study of Mus musculus with 30 samples.

Results

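Slco1c1, Slco1a4, Slco2b1, Slco3a1 and Slc22a8 encode membrane transporters that carry thyroid hormone, steroid and prostaglandin conjugates and other organic anions. These 5 genes were taken by name as a set of transporters, a choice made with earlier results of these data known, and they are 5 of 54288 gene symbols in the RNA-seq files and 5 of the 21761 protein-coding ones. All 5 passed the filter on low counts in each of the 5 comparisons across all libraries described here.

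The study asked how brain endothelial cells (ECs) differ from their state in the animal after they have been grown in a dish, and whether stabilizing beta-catenin, the effector of canonical Wnt signaling, changes the cultured cells. RNA-seq was given for 14 libraries in 4 groups and ATAC-seq, which maps open chromatin by transposase cutting, for 10 libraries in 3 groups, all from adult male mice. Acutely isolated ECs (2 RNA and 2 ATAC libraries) were GFP-positive cells sorted from brains of Tie2-GFP mice, in which the endothelial Tie2 promoter drives GFP, and the GFP-negative group (2 RNA libraries) held the remaining, non-endothelial cells of the same sorts. Both sorted groups combine cerebrum and cerebellum data. Cultures were harvested after 8 days, following a puromycin treatment that brain ECs survive because they express an efflux pump. WT cultures (6 RNA and 6 ATAC libraries) came from C57BL/6J mice in replicates 1 and 2 (isolation method A, papain digestion) and from Ctnnb1flex3/+;Tie2-GFP mice given 4-hydroxytamoxifen as pups in replicates 3 to 6 (isolation method B, homogenization with collagenase and dispase). Beta-catenin stabilized cultures (4 RNA and 2 ATAC libraries) came from Ctnnb1flex3/+;Pdgfb-CreER;Tie2-GFP mice given the same drug, in which the endothelial Pdgfb-CreER transgene removes the exon that holds the degradation signal of beta-catenin. Method A gave RNA replicates 1 and 2 of this group, and method B gave RNA replicates 3 and 4 and both ATAC libraries. In method A, strain and genotype therefore cannot be told apart, since its WT cells were C57BL/6J. Brains of several mice were pooled for each isolation and replicates were separate wells, so that p-values measure the spread between these libraries, which may in part be technical.

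Thyroid hormone reaches the brain by crossing capillary endothelium. Slco1c1 (OATP1C1) takes up the prohormone thyroxine at the blood-brain barrier. Slco1a4 (OATP1A4) and Slc22a8 (OAT3) move organic anions and drugs, Slco2b1 (OATP2B1) carries steroid conjugates, and Slco3a1 (OATP3A1) is a widely expressed prostaglandin and thyroxine carrier. Within cells, deiodinases activate or inactivate the hormone and the receptors Thra and Thrb act on target genes with corepressors and coactivators.

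RNA library totals ran from 24284843 to 94686456 estimated reads. The sorted libraries were read from one end for 75 cycles, WT cultures 3 and 4 from both ends for 150 cycles, and the other 8 cultures from both ends for 36 cycles, so that read type cannot be told apart from group in any comparison of cultures with acutely isolated ECs. WT cultures 3 and 4, which were also prepared by a sequencing company, stood apart from the other cultures for several of the genes below, and results are given with and without them. Mitochondrial RNA made up 10.6% and 11.2% of the acutely isolated libraries and 0.667% to 2.58% of the cultured ones. The 8 endothelial markers (Pecam1, Cdh5, Cldn5 and others) summed to 3648 to 3981 TPM (a level per transcript length, scaled to 1 total in all libraries) in acutely isolated ECs, 102 to 113 in GFP-negative cells, 2011 to 4585 in WT cultures and 2184 to 6247 in stabilized cultures, and each of them was at or above 5 TPM in every acutely isolated and cultured library. In WT cultures 3 of the 8 were called lower and 1 higher than in acutely isolated ECs. Flt1 went from 1175 and 1134 TPM to between 44.4 and 98.7 TPM, and Emcn from 101 and 176 TPM to between 939 and 2172 TPM.

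The genes lie on chromosomes 6, 7 and 19 of GRCm38. Slco1c1 (ENSMUSG00000030235.17) spans chr6:141524368-141570177 on the plus strand, and Slco1a4 (ENSMUSG00000030237.14) spans chr6:141805440-141856199 on the minus strand of the same chromosome. Slco3a1 (ENSMUSG00000025790.14) spans chr7:74275419-74554780 and Slco2b1 (ENSMUSG00000030737.17) chr7:99657804-99711340, both on the minus strand. Slc22a8 (ENSMUSG00000063796.9) spans chr19:8591254-8611835 on the plus strand. Of the 5 genes, 4 had a promoter window in the RefSeq table for GRCm38.p6, made of 250 bases before and 50 bases after an annotated start. The windows below are some of those at which the ATAC-seq libraries described later differed between acutely isolated and cultured ECs, with the constant Slco2b1 start for contrast. Each is printed 5' to 3' on the strand of its gene, and capitals mark matches to any of 7 short motifs searched on both strands: TCF/LEF CTTTGAT, SOX ACAAAG, ETS CCGGAA, AP-1 TGANTCA, TEAD GGAATG, SP/KLF GGGCGG and forkhead TGTTTAC.
Slco1c1 RefSeq promoter, chr6:141524104-141524403, plus strand: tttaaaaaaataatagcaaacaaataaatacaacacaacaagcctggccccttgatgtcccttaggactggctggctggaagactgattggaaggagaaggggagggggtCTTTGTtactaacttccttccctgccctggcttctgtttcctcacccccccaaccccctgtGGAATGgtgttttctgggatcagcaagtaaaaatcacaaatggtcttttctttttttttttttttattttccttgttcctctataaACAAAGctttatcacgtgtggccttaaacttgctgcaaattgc
Slco1a4 RefSeq promoter, chr6:141856171-141856470, minus strand: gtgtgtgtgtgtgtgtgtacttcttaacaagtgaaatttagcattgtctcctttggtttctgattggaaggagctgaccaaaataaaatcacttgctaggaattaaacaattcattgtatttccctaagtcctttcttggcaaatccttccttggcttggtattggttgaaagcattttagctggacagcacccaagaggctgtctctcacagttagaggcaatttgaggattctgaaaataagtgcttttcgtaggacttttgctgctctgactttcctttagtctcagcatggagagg
Slco2b1 RefSeq upstream promoter, chr7:99711291-99711590, minus strand: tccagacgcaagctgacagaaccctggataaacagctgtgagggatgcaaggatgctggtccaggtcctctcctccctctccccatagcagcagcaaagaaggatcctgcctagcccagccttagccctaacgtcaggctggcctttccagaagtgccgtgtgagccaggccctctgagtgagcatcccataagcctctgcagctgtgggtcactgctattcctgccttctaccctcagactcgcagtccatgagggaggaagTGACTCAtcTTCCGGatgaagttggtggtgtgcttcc
Slco2b1 RefSeq promoter with a peak in all 10 libraries, chr7:99706793-99707092, minus strand: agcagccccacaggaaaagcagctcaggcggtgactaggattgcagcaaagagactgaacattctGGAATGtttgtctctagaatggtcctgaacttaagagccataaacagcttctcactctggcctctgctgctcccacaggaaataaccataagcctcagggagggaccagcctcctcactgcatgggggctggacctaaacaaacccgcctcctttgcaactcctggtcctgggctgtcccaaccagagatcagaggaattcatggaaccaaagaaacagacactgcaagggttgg
Slco3a1, intron peak of the cultures, chr7:74376723-74377022, minus strand: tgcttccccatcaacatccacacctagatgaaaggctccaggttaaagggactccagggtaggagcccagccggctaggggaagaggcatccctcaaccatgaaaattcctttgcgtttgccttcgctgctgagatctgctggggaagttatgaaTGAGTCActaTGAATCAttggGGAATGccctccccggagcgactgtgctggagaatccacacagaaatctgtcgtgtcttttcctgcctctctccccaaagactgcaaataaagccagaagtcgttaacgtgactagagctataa

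The Slco1c1 window held 2 SOX matches and 1 TEAD match, motifs found in 18.7% and 14.7% of all 32851 RefSeq windows of this length. The Slco2b1 upstream window held 1 AP-1 match (7.81% of all windows) and 1 ETS match (14.9%), and the constant Slco2b1 window held 1 TEAD match. In the Slco3a1 intron window there were 2 AP-1 matches and 1 TEAD match, which were found in 27.5% and 20.2% of the 50272 summit windows of WT culture 1 and in 9.5% and 15.1% of the 37211 summit windows of acutely isolated library 1. No matches overlapped. The Slco1a4 window held none of the 7 letter strings, which says only that these letters are not in it. A match describes letters and was not tested as a binding site.

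In acutely isolated ECs, 4 of the 5 transporters were among the more abundant transcripts and the fifth was close to absent. Slco1c1, the thyroxine carrier, stood at 1475 and 1993 TPM in the 2 libraries, ranks 24 and 20 among all protein-coding genes. Slco1a4 followed at 680 and 807 TPM (ranks 58 and 47). Slc22a8 was at 179 and 183 TPM (ranks 291 and 317). For each of these 3 genes the 2 libraries differed by less than 1.5 times. Slco2b1 stood at 45.7 and 49.5 TPM (ranks 1515 and 1508), and Slco3a1 at 0.419 and 0.603 TPM (ranks 10715 and 10968).

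**Figure D1:**
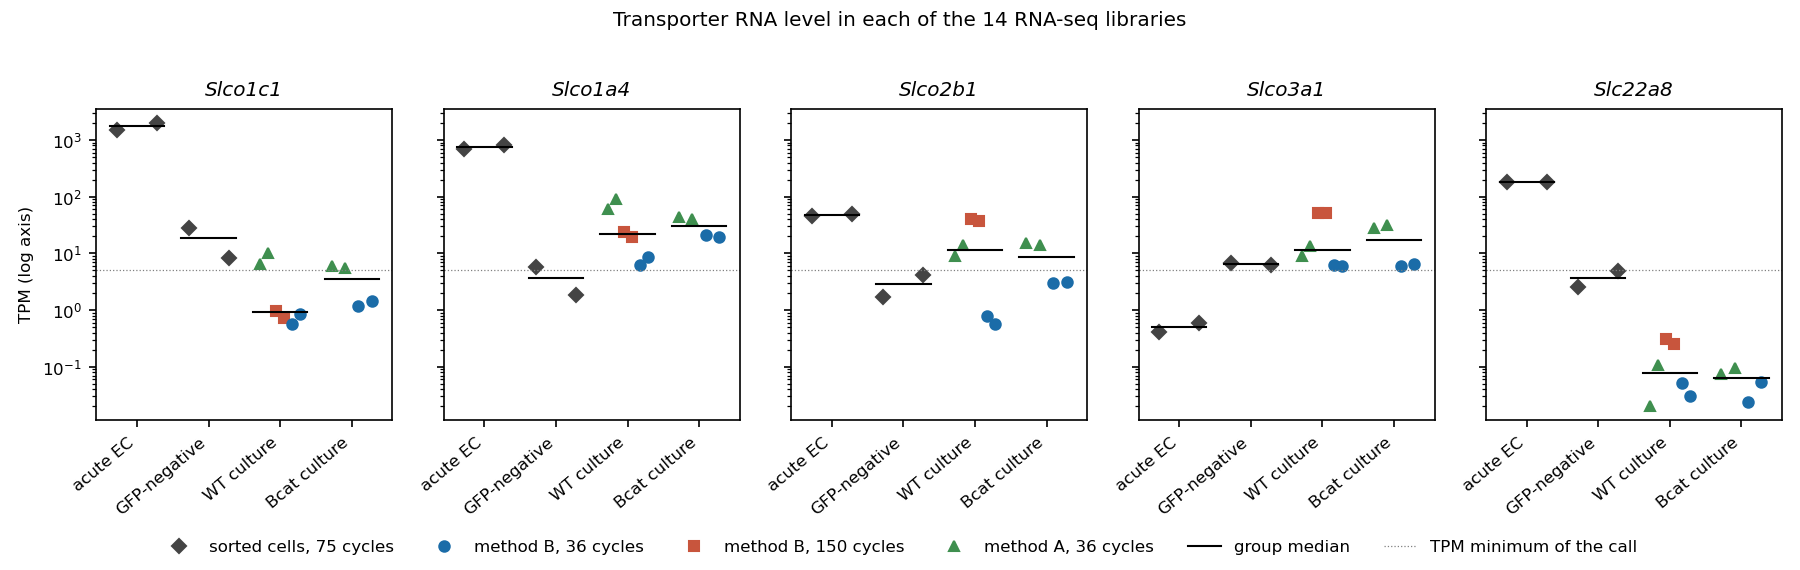
RNA level of each transporter, in TPM on a log axis, with 1 point for each of the 14 RNA libraries, a bar at the group median and a marker for each kind of isolation and read length. Slco1c1, Slco1a4, Slco2b1 and Slc22a8 are highest in the 2 acutely isolated libraries, and Slco3a1 is lowest there.

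The GFP-negative cells show which of these transcripts are concentrated in the sorted ECs. There Slco1c1 was at 28.4 and 8.27 TPM, so that its mean was 94.5-fold higher in acutely isolated ECs (210-fold without GFP-negative replicate 1 and 61.0-fold without replicate 2). Slco1a4 was at 5.65 and 1.84 TPM in GFP-negative cells, a 199-fold difference in mean TPM (403-fold without replicate 1 and 132-fold without replicate 2). For Slc22a8 the GFP-negative values were 2.56 and 4.85 TPM (49.0-fold lower than in ECs), and for Slco2b1 1.68 and 4.11 TPM (16.4-fold lower, and 28.3-fold without replicate 2). Slco3a1 went the other way, at 6.75 and 6.34 TPM in GFP-negative cells, 12.8-fold above ECs. The 2 groups did not overlap for any of the 5 genes. Of all genes tested, 20.2% were higher in both acutely isolated than in both GFP-negative libraries and 37.1% lower in both.

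All 5 genes were called different between acutely isolated ECs and GFP-negative cells (adjusted p under 0.05, at least a 2-fold change and at least 5 TPM in each library of the higher group): 4 were higher in ECs, where 8.34% of the 15080 genes tested were called higher, and 1 was lower, where 7.59% were called lower. With library size in place of TMM scaling these shares moved from 1257 higher and 1144 lower calls to 932 and 1424, and the median of all genes moved by -0.38 (log2), while the 5 transporters kept their calls. The log2 fold change was 7.62 ± 0.67 for Slco1a4 (SE, adjusted p = 0.00168), 6.14 ± 0.46 for Slc22a8 (0.00153), 6.11 ± 0.93 for Slco1c1 (0.00634), 4.53 ± 0.50 for Slco2b1 (0.00251) and -3.30 ± 0.52 for Slco3a1 (0.0069). In sorted bulk RNA of this kind, fewer cells of a type and less RNA per cell cannot be told apart. Acutely isolated ECs also held RNA of 6 pericyte markers (summed 505.8 to 526.4 TPM, against 351 to 686 in GFP-negative cells), of which 5 were at or above 5 TPM in both libraries. Their 6 astrocyte markers summed to 87.7 to 467 TPM, against 1448 to 3534 in GFP-negative cells, and all 6 were called lower in ECs. Most of the sum in ECs was Gja1, at 464 and 65.9 TPM, while Aqp4 was at 0.430 and 0.771 TPM and Slc1a2 at 0.461 and 0.584 TPM. The part of either cell type in the transporter values was not tested.

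In WT cultures the endothelial-enriched transporters were lower than in acutely isolated ECs, to very different extents. Slco1c1 in the 6 cultures ran from 0.559 TPM through a median of 0.909 to a highest value of 9.99 TPM, a 533-fold drop in mean TPM that rose to 909-fold without WT culture 2 and 2229-fold without both method A wells. Slc22a8 ran from 0.0204 through 0.0786 to 0.311 TPM, which was 2 to 18 estimated reads in each library, against 47243 and 99315 reads in acutely isolated ECs. Slco1a4 kept more of its level, with 6.31 as the lowest, 21.6 as the median and 91.0 TPM as the highest value, a 21.4-fold drop in the mean (51.3-fold without the method A wells). No culture overlapped the acutely isolated libraries for any of these 3 genes, as for 16.3% of all genes tested, which were lower in every culture, and the ranking among cultures was wide: Slco1c1 fell to between rank 5726 and rank 11458 of all protein-coding genes, and Slco1a4 to between 865 and 6584.

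Slco2b1 and Slco3a1 behaved differently from these. In WT cultures Slco2b1 ran from 0.563 through 11.4 to 39.8 TPM, and the highest culture was only a little under the lower acutely isolated value of 45.7 TPM. Slco3a1 ran from 5.97 through 11.2 to 52.1 TPM, so that each culture was above both acutely isolated libraries, as for 32.1% of all genes. The mean was 45.2-fold higher (33.9-fold without WT culture 3 and 34.0-fold without WT culture 4). Experiment means were 11.2 TPM in method A, 51.9 TPM in the 150-cycle cultures and 6.12 TPM in the 36-cycle cultures of method B. On normalised counts, which do not divide by transcript length, the difference given below was smaller. Both genes were highest in WT cultures 3 and 4, at 39.8 and 36.8 TPM for Slco2b1 and 52.1 and 51.8 TPM for Slco3a1. WT cultures 5 and 6 were the lowest for both genes, with 0.781 and 0.563 TPM of Slco2b1 and 6.27 and 5.97 TPM of Slco3a1.

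Between WT cultures and acutely isolated ECs, 3 of the 5 transporters were called lower, against 10.3% of the 13757 genes tested, and 1 was called higher, against 13.6%. The WT wells came in pairs from the same culture experiments. This fit counted each well as a separate replicate, so its p-values may be too small. The log2 fold change of Slc22a8 was -12.17 ± 0.58 (SE, adjusted p = 1.3e-05). That of Slco1c1 was -9.15 ± 1.24 (adjusted p = 0.000713) and that of Slco1a4 -5.61 ± 0.87 (adjusted p = 0.00122). Slco3a1 rose by 3.34 (SE 0.51, adjusted p = 0.00118). For Slco2b1 the difference was -2.78 ± 1.05 (SE), and with an adjusted p of 0.0553 it did not pass the threshold, although the 2 groups did not overlap. The Slco2b1 call changed with the libraries and tool used: it passed without WT culture 5 (-2.54, adjusted p = 0.0491), without WT culture 6 (-2.53, adjusted p = 0.0458) and with DESeq2 (-2.84, adjusted p = 0.0228), and over all alternatives that left out 1 library its value lay between -3.23 and -2.10.

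**Figure D2:**
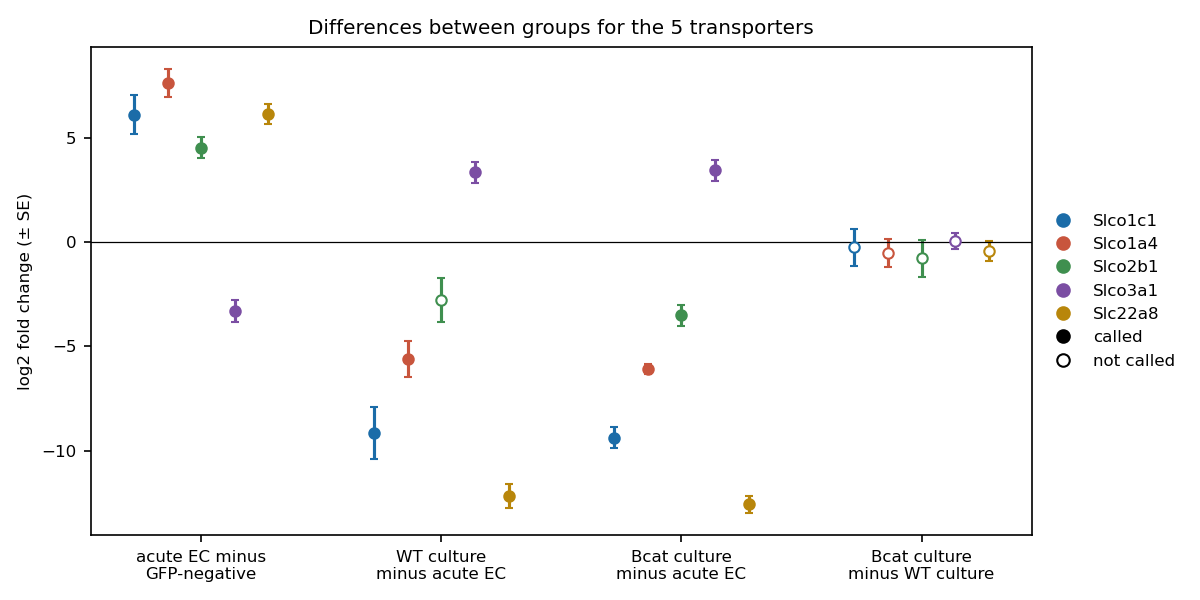
Log2 fold change with its SE for each transporter in 4 comparisons, from edgeR's quasi-likelihood fits, where filled points were called and open points were not. The 4 transporters above 0 against GFP-negative cells are below 0 in both comparisons of cultures with acutely isolated ECs, Slco3a1 has the opposite signs, and no point of the comparison between cultures was called.

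Within each culture experiment the directions held for all 5 genes, and Slco2b1 was called lower in each. The share of genes called lower was 13.3% in method A, 15.3% in the 150-cycle cultures and 11.8% in the 36-cycle cultures of method B. The cultures in each of these fits were wells of the same experiment, so the p-values do not measure the spread between experiments. For Slco1c1 the log2 fold change was -7.79 ± 0.36 in method A cultures (adjusted p = 0.0023), -11.65 ± 0.39 in the 150-cycle cultures (0.00106) and -11.10 ± 0.46 in the 36-cycle cultures of method B (0.0024). For Slco1a4 the same 3 differences were -4.45 ± 0.28, -6.61 ± 0.28 and -7.62 ± 0.31, so that the smallest fall of both genes was in method A. Slco2b1 differed by -2.54 ± 0.44 in method A (adjusted p = 0.0116), -1.97 ± 0.42 in the 150-cycle cultures (0.017) and -6.79 ± 0.54 in the 36-cycle cultures of method B (0.00345). Slco3a1 was higher by 3.26 ± 0.28, 3.89 ± 0.25 and 2.56 ± 0.26 in the same order. Without the 150-cycle libraries the values were -8.65 for Slco1c1, -5.29 for Slco1a4, -3.47 for Slco2b1 (adjusted p = 0.0565), 2.97 for Slco3a1 and -12.44 for Slc22a8.

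**Figure D3:**
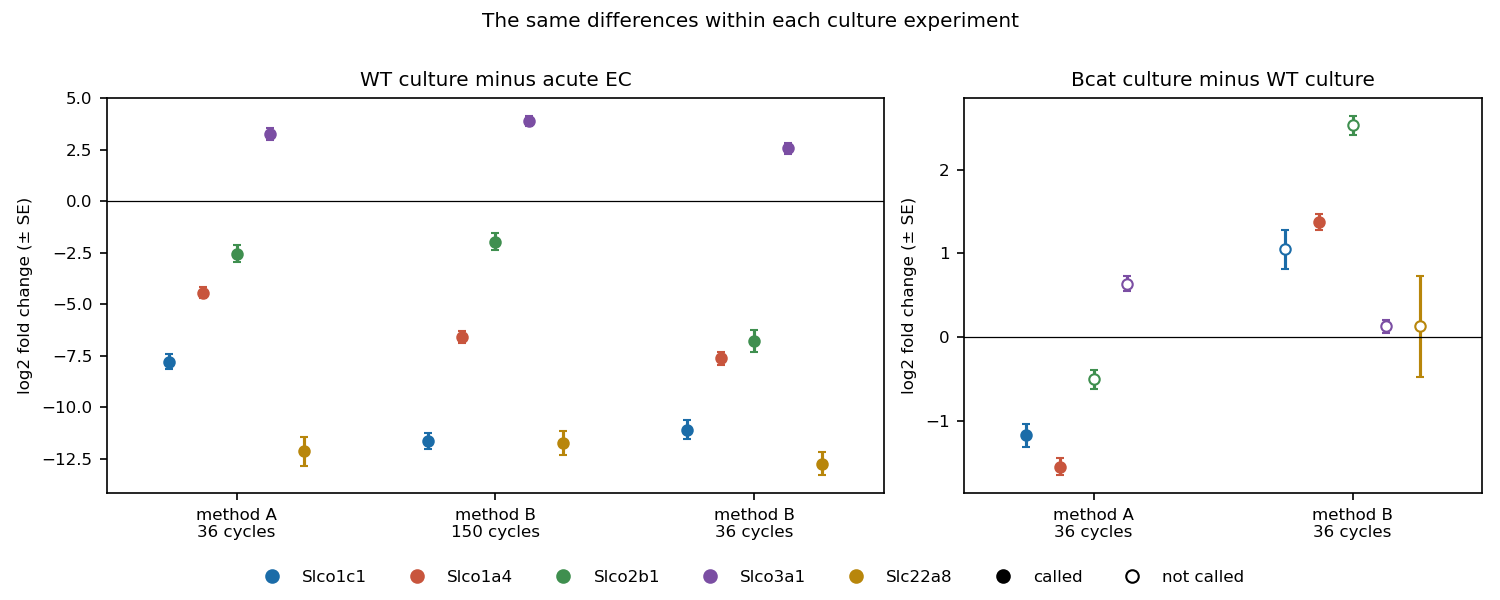
Log2 fold change with its SE within each culture experiment of 2 WT wells, against acutely isolated ECs on the left and for stabilized against WT cultures of the same method on the right, with filled points called and open points not. On the left each gene keeps 1 sign in all 3 experiments; on the right Slco1c1 and Slco1a4 lie below 0 in method A and above 0 in method B.

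Between the 2 thyroid and organic anion carriers of chromosome 6 the order of summed transcript levels was exchanged in culture. Per transcript length, and summed over all annotated transcripts, Slco1c1 was 2.17 and 2.47 times as abundant as Slco1a4 in the acutely isolated libraries. Protein-coding transcripts held 52.1% and 40.1% of the Slco1c1 TPM there, against 99.1% and 97.3% for Slco1a4. On coding transcripts alone the ratio would therefore be smaller, with the 2 genes at close to the same level in both acutely isolated libraries. In the 6 WT cultures the ratio was 0.0378 at the lowest and 0.110 at the highest. In the 4 stabilized cultures it was 0.136, 0.136, 0.0568 and 0.0764, and in the 2 GFP-negative libraries 5.03 and 4.49. Summed over all transcripts, Slco1c1 was thus the more abundant gene in each sorted library and Slco1a4 in each culture. Over the 10 cultures the log levels of the pair had a Pearson r of 0.909, and Slco2b1 and Slco3a1 one of 0.913, as a description of libraries that share isolation and read length.

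Marker genes of other cell types also differed between the groups. The 4 smooth muscle markers summed to 214 to 233 TPM in acutely isolated ECs, 501 to 3068 in WT cultures and 3585 to 5266 in GFP-negative cells, and 3 of them were called higher in WT cultures than in acutely isolated ECs and 1 lower. The lower one was Myh11, the smooth muscle myosin heavy chain, at 25.0 and 19.7 TPM in acutely isolated ECs and 0.502 to 3.11 TPM in WT cultures. The 6 pericyte markers summed to 4.19 to 10.2 TPM in WT cultures and the 6 astrocyte markers to 3.36 to 45.8, most of it Gja1 at 1.89 to 43.3 TPM. The 4 fibroblast markers summed to 2.76 to 21.7 TPM there and the 5 neuron markers to 2.61 to 9.46. The 6 oligodendrocyte markers summed to 6.16 to 36.7 TPM in WT cultures, most of it Cnp at 5.07 to 36.2 TPM. Of these 6, Mog was at 0 in all WT cultures, as were the erythrocyte genes Alas2 and Hbb-bt. The 4 erythrocyte markers summed to 5443 and 41094 TPM in acutely isolated ECs and to at most 1.39 in WT cultures. The part of these cells in the transporter differences was not tested.

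Stabilized cultures were compared with acutely isolated ECs to see how far the carriers remained from their level before culture. Slco1c1 was at 5.96, 5.47, 1.20 and 1.46 TPM in the 4 stabilized cultures. Slco1a4 was at 43.8, 40.1, 21.1 and 19.1 TPM, and Slco2b1 at 15.0, 13.9, 3.04 and 3.12 TPM. All of these were below the acutely isolated values, and for each gene the 2 method A wells were above the 2 method B wells. Slco3a1 was at 28.2, 31.0, 6.02 and 6.40 TPM, above both acutely isolated libraries. Of all genes tested, 17.8% were lower in every stabilized culture than in both acutely isolated libraries and 38.7% higher. Slc22a8 was at 0.0747, 0.0968, 0.0240 and 0.0548 TPM, from 6 to 15 reads in each library.

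Each of the 5 genes was called in this comparison, 4 lower (11% of 13862 genes tested) and 1 higher (15.1%). The log2 fold changes were -12.56 ± 0.41 for Slc22a8, -9.37 ± 0.49 for Slco1c1, -6.08 ± 0.22 for Slco1a4, -3.51 ± 0.50 for Slco2b1 (adjusted p = 0.00152) and 3.44 ± 0.51 for Slco3a1. The comparison shares its acutely isolated libraries with the one of WT cultures, so the values of the 2 comparisons are not independent. Here too paired wells were counted as separate replicates, so the p-values may be too small.

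Against WT cultures, the stabilized cultures showed no called difference for any of the 5 transporters. A call also needs 5 TPM in each library of the higher group. Slco1c1, Slco2b1 and Slc22a8 met this in neither group, so they could not be called in either direction, whatever their adjusted p. The groups overlapped for all 5 genes, and 0.441% of all genes tested were higher and 0.286% lower in every stabilized culture. The log2 fold change was -0.25 ± 0.89 for Slco1c1 (SE, adjusted p = 0.922), -0.51 ± 0.67 for Slco1a4 (0.777), -0.78 ± 0.89 for Slco2b1 (0.743), 0.06 ± 0.38 for Slco3a1 (0.96) and -0.43 ± 0.49 for Slc22a8 (0.747). With SEs of 0.67 to 0.89, a 2-fold difference was not detectable for Slco1c1, Slco1a4 or Slco2b1. The SEs of Slco3a1 (0.38) and Slc22a8 (0.49) were smaller, but 0 of all genes tested passed the adjusted p in this fit. A lack of a call is therefore not evidence of no 2-fold difference for these genes either. Of all 12935 genes, 0 were called by edgeR (0% in either direction), while 1421 had an unadjusted p under 0.05 and DESeq2 called 14 higher and 3 lower. A set of 7 Wnt target genes, a check on the allele, also had 0 calls here, with a median log2 fold change of 1.07 against -0.07 over all genes tested.

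The 2 isolation methods, taken apart, gave differences of opposite sign for Slco1c1 and Slco1a4. In method A, WT cultures held 6.43 and 9.99 TPM of Slco1c1 and stabilized cultures 5.96 and 5.47 TPM. In method B at 36 cycles, WT cultures held 0.559 and 0.846 TPM and stabilized cultures 1.20 and 1.46 TPM. The stabilized wells were therefore the lower ones in method A and the higher ones in method B. Slco1a4 followed the same pattern, with 59.7 and 91.0 TPM in WT against 43.8 and 40.1 TPM in stabilized method A cultures. In method B its values were 6.31 and 8.57 TPM in WT and 21.1 and 19.1 TPM in stabilized cultures. For Slco2b1 the TPM in method A overlapped (8.96 and 13.9 in WT, 15.0 and 13.9 in stabilized cultures), and in method B they did not (0.781 and 0.563 against 3.04 and 3.12). On the scale of normalised counts, which does not divide by transcript length, Slco2b1 was lower in the stabilized method A wells (log2 CPM 5.79 and 5.47) than in the WT ones (6.00 and 6.16).

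Within method A, both were called lower in stabilized cultures, Slco1c1 with a log2 fold change of -1.17 ± 0.14 (adjusted p = 0.00111) and Slco1a4 with one of -1.55 ± 0.10 (adjusted p = 0.000418), while 0.92% of all genes were called lower there. Slco2b1 differed by -0.50 ± 0.11 (adjusted p = 0.00836) and Slco3a1 by 0.64 ± 0.09 (adjusted p = 0.00184), both under the 2-fold limit of a call. Within method B at 36 cycles, Slco1a4 rose by 1.38 (SE 0.10, adjusted p = 0.000465), where 1.09% of all genes were called higher. Slco1c1 (1.05 ± 0.23, adjusted p = 0.0146) and Slco2b1 (2.53 ± 0.11, adjusted p = 0.000189) did not reach the minimum of 5 TPM for a call. The difference between the methods passed the test for 4 of the 5 transporters: the stabilized minus WT value was larger in method B than in method A by 2.21 ± 0.29 for Slco1c1 (adjusted p = 0.000467), 2.91 ± 0.15 for Slco1a4 (1.89e-05) and 3.02 ± 0.17 for Slco2b1 (2.46e-05), and it was different by -0.52 ± 0.12 for Slco3a1 (0.00605). For Slc22a8 it was 0.51 ± 0.92 (adjusted p = 0.668). This test passed for 50% of all 13328 genes, 24.1% higher and 25.9% lower in method B, so that 4 of 5 is to be read against that share. Each of the 4 groups of this fit holds 2 wells, and in method A strain and genotype cannot be told apart. Its p-values, and those within each method, measure the spread between wells and not that between repeated culture experiments.

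The level of a gene summed over its transcripts also hides differences in which transcripts were assigned reads. For Slco1c1, acutely isolated ECs had 50.4% and 37.7% of the TPM on the coding transcript Slco1c1-206 and 41.3% and 48.8% on Slco1c1-205, which is annotated as subject to nonsense-mediated decay. In all 10 cultures Slco1c1-205 was listed at 0. In WT cultures 3 and 4 the transcript Slco1c1-201 took 100% of the Slco1c1 level, on 65 and 52 estimated reads. Slco1c1 had 52 to 845 reads in each WT culture and 220 to 626 in each stabilized one. Acutely isolated ECs had 359656 and 218450, so the Slco1c1 shares in cultures rest on far fewer reads. For Slco3a1, the transcript Slco3a1-202 took 85.2% and 87.7% in WT cultures 3 and 4 and between 10.2% and 44.0% in the other 12 libraries. Slco3a1-201 was the larger one in each of those 12. For Slco2b1, Slco2b1-203 held 72.5% and 38.6% in acutely isolated ECs and 88.9% to 97.0% in WT cultures 1 to 4, but 36.3% and 38.3% in WT cultures 5 and 6, and the short transcript Slco2b1-206 held 18.4% and 38.3% in acutely isolated ECs. Once each library's mean transcript length entered the fit as an offset, the WT culture difference was -9.40 for Slco1c1, -4.87 for Slco1a4, -2.56 for Slco2b1 and 4.52 for Slco3a1, and no call changed. Shares of transcripts were not tested, and the read lengths of these libraries differ.

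**Figure D4:**
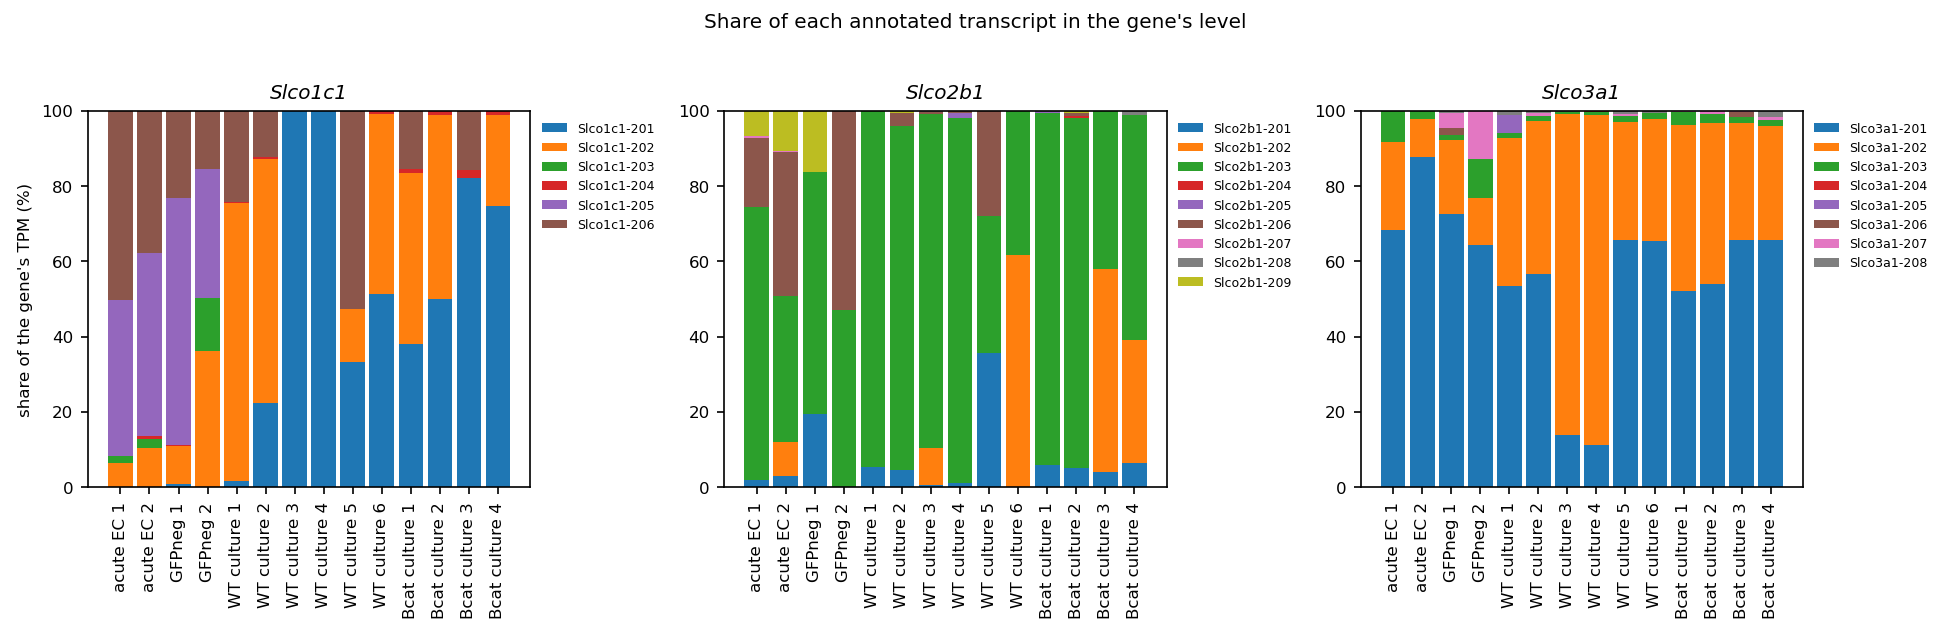
Share of the TPM of Slco1c1, Slco2b1 and Slco3a1 that fell on each annotated transcript, in percent, as stacked bars for each of the 14 RNA libraries. Slco1c1-205 is present in the 4 sorted libraries and at 0 in the 10 cultures, and Slco3a1-202 dominates in WT cultures 3 and 4 alone.

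Open chromatin at the start sites was read from the peaks of each ATAC-seq library that passed a fold enrichment of 2 and a -log10 q of 2. Peak numbers ran from 31779 and 37384 in the acutely isolated libraries to 33122 to 98732 in WT cultures and 79116 and 80034 in stabilized cultures, so a missing peak in a culture stands against a longer or similar list. No test was made on peaks, which were called in each library separately, and positions are those of overlapping peaks merged over all 10 libraries.

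At 3 of the 5 genes the 5' end had a peak in both acutely isolated libraries and in no culture. At Slco1c1 a peak at chr6:141523554-141524727 covered the printed promoter, with fold enrichments of 13.8 and 13.4 in the 2 acutely isolated libraries. None of the 6 WT or 2 stabilized cultures had a peak within 1000 bases of that start. At Slc22a8 the start-site peak had fold enrichments of 10.8 and 10.5, and a region downstream of the gene, chr19:8613075-8613769, had 4.21 and 4.85, while the cultures had no peak anywhere in the gene with 10 kb on either side. Of all genes, 0.47% had a peak in such a stretch in both acutely isolated and no WT culture library. At Slco1a4 the 5' end of the gene carried a peak at chr6:141855938-141856499 (9.74 and 8.29) over the printed window, and the start of the coding transcript Slco1a4-201 one at chr6:141845888-141846414 (4.02 and 3.67). Again no culture had a peak at either place. Among all 21924 genes with a window, 0.283% had a peak at the 5' end in both acutely isolated and no WT culture library.

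Slco1a4 also had regions that appeared in cultures. Over the gene with 10 kb on either side, 6 regions had a peak in both acutely isolated and no WT culture library. Each acutely isolated library held 7 peaks there and each WT culture 1 to 5, and of all genes 1.11% had more peaks in each acutely isolated library than in each WT culture, as Slco1a4 and Slc22a8 did. One region inside the gene, at chr6:141853298-141854002 over the annotated start of the retained-intron transcript Slco1a4-204, had a peak in all 6 WT and both stabilized cultures (fold enrichment 7.10 to 10.2) and in no acutely isolated library. In the Slco1c1 gene an intron region at chr6:141543436-141543772 had a peak in all 6 WT cultures (3.46 to 5.18), in 1 stabilized culture and in neither acutely isolated library. An earlier intron region of Slco1c1, chr6:141530565-141531281, had a peak in the 4 method B WT cultures (8.51 to 14.1), both stabilized cultures and 1 acutely isolated library (4.08). The method A WT cultures lacked it.

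Slco2b1 and Slco3a1 had start-site peaks in every library. At Slco2b1 the start of Slco2b1-203 was covered by a peak at chr7:99706325-99707544, with fold enrichments of 6.47 and 4.78 in acutely isolated ECs, 4.27 to 7.26 in WT cultures and 3.59 and 4.22 in stabilized cultures. The upstream start, at the 5' end of the gene, had a peak at chr7:99711175-99711559 in 5 of 6 WT cultures (5.29 to 13.1) and both stabilized cultures (9.50 and 11.5) and in no acutely isolated library. The culture without it was WT culture 2, the WT library with the fewest peaks. At Slco3a1 the start-site peak at chr7:74553963-74555369 had fold enrichments of 4.23 and 3.86 in acutely isolated ECs, 6.91 to 10.9 in WT cultures and 9.47 and 9.96 in stabilized cultures. Across all genes a peak at the 5' end in all 8 acutely isolated and WT culture libraries was found for 46.7%, Slco3a1 among them, while the constant peak of Slco2b1 lay at an inner start.

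The Slco3a1 gene carried 33 regions with a peak in at least 1 library, of which 28 were found in some cultures and 3 in all 6 WT and both stabilized cultures, without a peak in acutely isolated ECs. The count in each library was 2 and 2 in acutely isolated ECs, 9 to 30 in WT cultures and 18 and 18 in stabilized cultures. Fewer peaks in each acutely isolated library than in each WT culture were seen over 15.9% of genes. The whole lists of the cultures were longer too, except in WT culture 2, with 33122 peaks against 37384 and 31779 in acutely isolated ECs. For each 10000 peaks of a library, Slco3a1 held 0.535 and 0.629 in acutely isolated ECs and 2.25 to 3.37 in WT cultures. The 3 regions of all cultures were in introns: chr7:74376368-74377159, which holds the printed window with 2 AP-1 matches (fold enrichment 6.65 to 18.9 in WT cultures), chr7:74408543-74409024 (11.6 to 16.3) and chr7:74458563-74460251 (5.00 to 12.0).

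**Figure D5:**
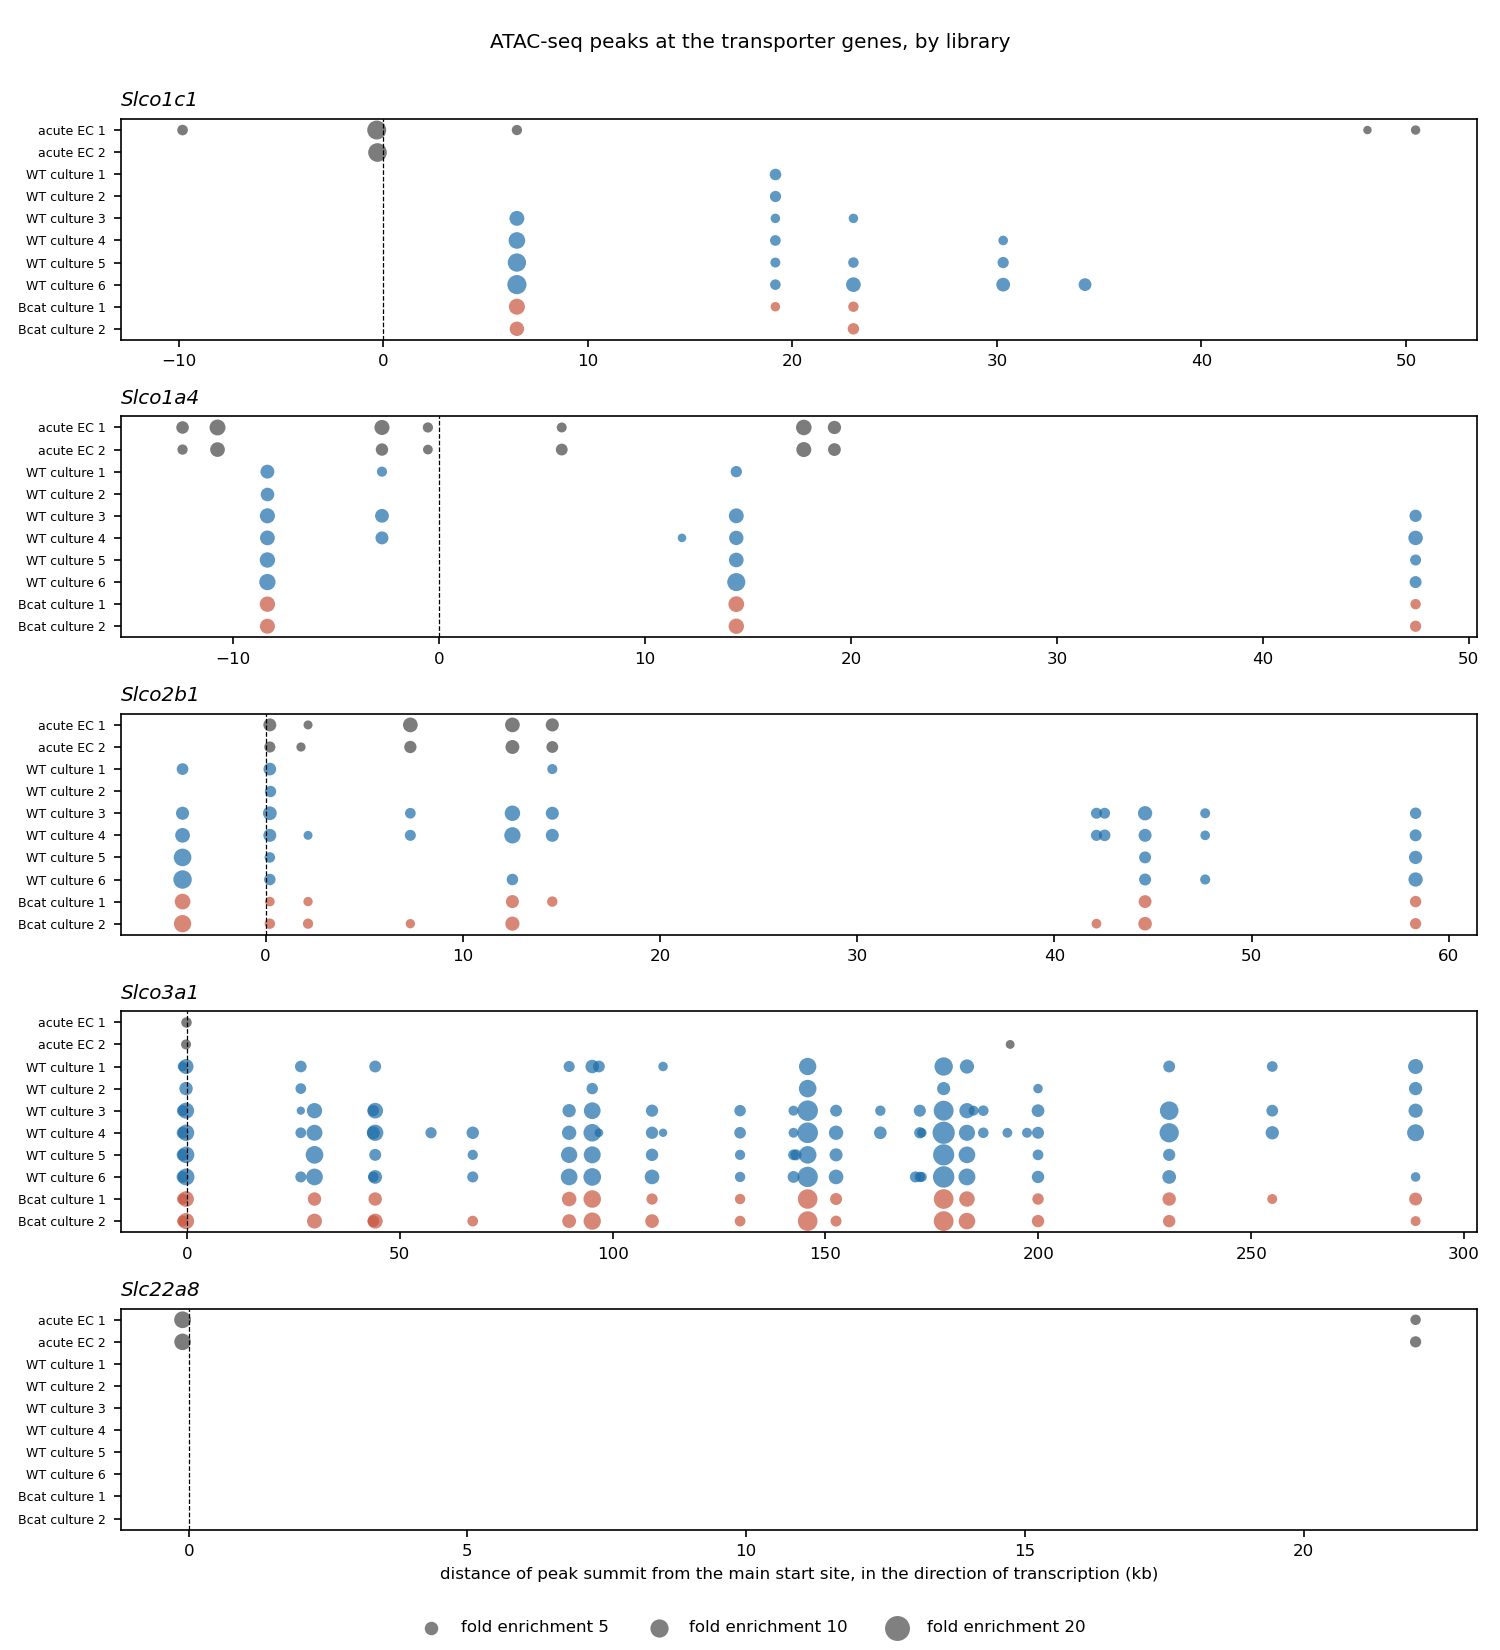
Regions of overlapping peaks, merged over all 10 libraries, over each gene with 10 kb flanks, as the distance of the region's strongest summit from the main start site in kb along the direction of transcription, in rows for the 10 ATAC-seq libraries with 1 point for each region that held a peak of that library and a point area proportional to its highest fold enrichment there. Slco1c1 and Slc22a8 have a start-site point in the 2 acutely isolated rows alone, Slco3a1 has 1 or 2 points in those rows and many in each culture row, and Slc22a8 has no point in any culture.

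Other genes of the same families and of the thyroid hormone pathway were read from 6 lists that hold 65 genes. Between WT cultures and acutely isolated ECs, 36 of the 65 could be tested, 9 were called lower and 0 higher, against 10.3% and 13.6% of all genes. Their median log2 fold change was -1.61, and that of all genes tested was 0.10. Neither the other 11 Slco nor the other 24 Slc22 genes held a call, with 6 and 8 of them tested.

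Of the 9, 7 are described here, and among them were a pair of other thyroid hormone carriers. Slc3a2, the heavy chain that pairs with amino acid carriers, was at 2228 and 1916 TPM in acutely isolated ECs and at 42.3 to 337 TPM in WT cultures, and fell by 2.47 (SE 0.48, adjusted p = 0.00336). Slc7a5, its LAT1 partner, was at 221 and 289 TPM against 15.4 to 20.0 TPM in the 36-cycle WT cultures and 328 and 272 TPM in the 150-cycle ones. It was called lower (-3.11 ± 0.85, adjusted p = 0.0161), but its TPM in WT cultures 3 and 4 overlapped the acutely isolated values, and without acutely isolated replicate 1 the adjusted p was 0.106.

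The rest were the receptor Thra and its partners. Thra was at 62.9 and 77.8 TPM in acutely isolated ECs and at 3.58 to 8.86 TPM in WT cultures, and fell by 3.98 (SE 0.27, adjusted p = 3.94e-05). The corepressor Ncor1 fell by 2.52, and the coactivators Ncoa1, Ncoa2 and Ncoa3 by 3.73, 1.96 and 1.70. The call of Ncoa2 was lost without either acutely isolated library (adjusted p = 0.117 and 0.0688). Thrb, the second receptor, was at 0.340 and 1.21 TPM and then 0.209 to 0.494 TPM (-0.94 ± 0.69, adjusted p = 0.292). The activating deiodinase Dio2 was at 0.112 and 0.193 TPM and in WT cultures at 0.0327 TPM or less (-4.61, adjusted p = 0.00937), too low to be called, and the inactivating deiodinase Dio3 was listed at 0 in all acutely isolated and WT culture libraries. Klf9, a hormone response gene, was at 51.1 and 82.6 TPM and then 14.4 to 39.2 TPM (-1.64 ± 0.64, adjusted p = 0.0611), and it was called lower in stabilized cultures against acutely isolated ECs (-1.50 ± 0.29, adjusted p = 0.00533). In that comparison 10 of 37 tested list genes were called lower (11% of all genes), the same 9 and Klf9, and 0 higher.

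Between acutely isolated ECs and GFP-negative cells, 4 of 40 tested list genes were called higher (8.34% of all genes) and 3 lower (7.59%), shares near those of all genes, with a median of -0.18 against -0.06 over all genes tested. Among those higher in ECs were Slc7a5 (5.68 ± 0.61, adjusted p = 0.00245), Slc3a2 (2.33 ± 0.44, adjusted p = 0.0125) and Strn3 (1.20 ± 0.33, adjusted p = 0.0386). The call of Strn3 was lost without GFP-negative replicate 1 or 2 or acutely isolated replicate 1 (adjusted p = 0.181, 0.182 and 0.165). Lower in ECs were Ttr, the thyroxine-binding product of the choroid plexus (18.1 and 2.57 TPM in ECs, 2978 and 462 in GFP-negative cells), Slc22a17 and Slc22a4. The 5 choroid plexus markers summed to 1.13 to 4.85 TPM in ECs and 26.8 to 176 in GFP-negative cells. Between stabilized and WT cultures 0 of 33 tested list genes were called.

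For each transporter the 3 genes whose pattern was most like it were found by Pearson r on log2(TPM + 1) over the 14 libraries, among 10676 protein-coding genes that reached 5 TPM in at least 2 of them. The libraries share groups, isolation and read length, so these values describe the pattern and carry no test. Among these, Slco1c1 was most like Zfp101 (0.984), with Edn3, an endothelin, at 0.964. Slc22a8 was most like Edn3 (0.994) and Ddc, an amino acid decarboxylase (0.993), but over the 10 cultures alone these were -0.55 and 0.82. Slco1a4 was most like Slc16a4, a monocarboxylate carrier family member (0.964), Rassf9 (0.955) and Clic5 (0.950). Slco2b1 followed Selenop, a selenium carrier protein (0.983), Serpinb9, a protease inhibitor (0.969), and Nudt16 (0.962), and Slco3a1 followed B3galnt1 (0.985), Bloc1s1 (0.981) and Fam120b (0.980). For these last 2 transporters r over the cultures alone was between 0.963 and 0.980.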

How the data were processed

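The authors quantified RNA-seq reads with Salmon 0.14.0 on GENCODE M21 transcripts and deposited, for each library, estimated counts and TPM per transcript. The authors' ATAC-seq peaks were made with MACS2 2.1.2, separately per library, from deduplicated HISAT2 2.1.0 alignments to GRCm38, and these deposited files give a fold enrichment (a ratio to local background), a -log10 p, a -log10 q and a display score, not used here, for every peak. The authors' filter of fold over 2 and -log10 q over 2 was applied here.

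Transcript values were summed per gene symbol. Estimated counts of protein-coding genes were rounded, filtered by filterByExpr, scaled by TMM and compared by the quasi-likelihood F test of edgeR 4.0.16 (R 4.3.3), with Benjamini-Hochberg adjustment over all genes tested. EBSeq, which the study used, was not used here. A call required an adjusted p under 0.05, a fold of at least 2 and a TPM of at least 5 in each replicate of the higher group. The difference between isolation methods was tested on the 8 36-cycle cultures by adjusted p alone. A start-site window reached 1000 bases to either side and a locus 10 kb. The scripts were tested on simulated data.

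Named genes were the 5 transporters, each list gene called in any of 4 comparisons of groups, Dio2, Dio3, Thra and Thrb, the 3 most similar genes for each transporter, and marker genes and Wnt targets by list. Slco4a1 was added after its values were seen. The members and lists were chosen with earlier results of these data known. Alternatives covered DESeq2 1.42.0, library size scaling, filters, a transcript length offset, the replicate number as a block, fewer libraries and other peak limits. The count-based p-values have no interval for counting error, and PCR duplicates in RNA-seq were not marked by molecular identifiers. Cerebrum-only libraries were not analysed here, and some of the named genes and windows are not reported here.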

Additional observations from a re-analysis of the deposited data

Results flagged for a closer look

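For 4 of the 5 transporters the difference between stabilized and WT cultures was itself different in the 2 isolation methods, by a test of the interaction in edgeR with Benjamini-Hochberg adjustment. Method B minus method A was 2.21 for Slco1c1, 2.91 for Slco1a4, 3.02 for Slco2b1 and -0.52 for Slco3a1 (log2, adjusted p = 0.000467, 1.89e-05, 2.46e-05 and 0.00605). The same test passed for 50% of all genes tested, so it is not particular to these transporters. Its p-values measure the spread between wells and not that between repeated culture experiments. In method A the WT wells were C57BL/6J and the stabilized wells another genotype and strain, and whether strain, isolation or the allele moved the values was not tested.

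A single library stood apart from the rest of its group in 1 of 47 groups examined by Dixon's criterion, which chance alone gives in about 1 in 20. It was Dio3, at 0.0170 TPM in stabilized culture 1 and listed at 0 in the other 3 stabilized cultures, a level at which a gene is barely detected.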

How the results depend on the processing

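Of the 5 transporters, those called in WT cultures against acutely isolated ECs numbered 4, and 4 to 5 when 1 library was left out. For GFP-negative cells and for stabilized cultures against acutely isolated ECs the number was 5 under each setting and each left-out library, and for the difference between methods it was 4 under each. The reanalysis changed no direction of a transporter in the comparisons with acutely isolated ECs. Over all alternatives Slco2b1 was called lower in WT cultures under 8 of them, the replicate block included (-2.45). The block rests only on the WT replicates whose numbers match those of acutely isolated libraries, a pairing without basis in the design. Several of the others are subsets of the same wells, so the 8 are not separate lines of support. Library size scaling moved the median of all genes in that comparison by 0.21 (log2).

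Stabilized against WT cultures gave 0 called transporters, 0 with any 1 library left out, 2 lower in method A alone (0.92% of all genes tested) and 1 higher in the 36-cycle cultures of method B (1.09%), a fit added after the data were seen. None of the 5 was called in the pooled fit, where the TPM minimum kept Slco1c1, Slco2b1 and Slc22a8 from any call. The signs of the values in that fit were not stable. Slco1c1 was at 0.17 with the replicate block, 1.33 in all method B cultures, 1.05 in those of 36 cycles and -0.48 to 0.43 with 1 library left out. Slco1a4 was at 0.80 and 1.38 in the same 2 sets of method B cultures. Slco2b1 was at 2.53 in the 36-cycle method B cultures and 0.93 with isolation method as a term. Slco3a1 was at -0.0021 with library size scaling, -0.20 with the length offset, -0.30 with the replicate block, -0.67 in method B and -0.16 to 0.25 with 1 library left out. Slc22a8 was at 0.13 in the 36-cycle method B cultures, and its difference between methods ran from -0.89 to 1.05 with 1 library left out. The cause of these changes was not tested, beyond the smaller sets of libraries themselves.

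Counts over all genes moved by more than 1.5 times as follows. Without the TPM minimum, WT cultures against acutely isolated ECs gave 3159 higher and 2830 lower, GFP-negative cells 2990 lower in ECs, and stabilized cultures against acutely isolated ECs 3404 and 3211. The 150-cycle cultures alone gave 2869 higher, and wells summed by experiment 838 lower. Against GFP-negative cells, 665 were higher with the length offset, and 674 and 666 without GFP-negative replicate 1 and 2. For stabilized against WT cultures, higher and lower calls were 133 and 34 with the replicate block, 691 and 118 in method A, 1 and 0 in method B, 139 and 37 in its 36-cycle cultures and 67 and 10 with isolation as a term. The replicate numbers did not pair the cultures: same-numbered libraries had correlated deviations of 0.384, 0.395, -0.029 and 0.022 for WT and stabilized replicates 1 to 4. The highest values for stabilized libraries of another number were 0.317, 0.446, 0.027 and 0.015. Acutely isolated and WT replicates 1 and 2 had -0.025 and 0.026. Acutely isolated and GFP-negative replicates 1 and 2, which came from the same sorts, had 0.049 and 0.049, and their main fit did not use this pairing. The block is only a check.

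With a stricter peak limit (-log10 q over 10) 0 rather than 2 genes had a start-site peak in each acutely isolated and WT library, and the start-site peak of Slco1a4-201 in acutely isolated library 2 did not pass. With a pseudocount of 0.1, 8 of the 15 most similar genes were named again. Depth limits Slc22a8, which had 2 to 18 reads in each culture. It also limits the transcript shares of Slco1c1, which had 52 to 845 reads in each WT culture.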

Other observations

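Slco4a1, another organic anion carrier of the Slco family, was listed at 0 in both acutely isolated libraries and is named here after its values were seen. In GFP-negative cells it was at 0.993 and 4.71 TPM. In WT cultures it stood at 0.313 and 0.312 TPM in method A, at 44.1 and 43.3 TPM in the 150-cycle libraries and at 9.29 and 9.01 TPM in the 36-cycle libraries of method B. The 4 stabilized cultures held 4.20, 4.04, 12.1 and 11.7 TPM. The 2 wells of each experiment were close to each other and the experiments were far apart. It was not called higher in WT cultures against acutely isolated ECs (adjusted p = 0.0105), because 2 WT cultures were under 5 TPM.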
